A study of Mus musculus with 35 samples.

Results

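The step described here is the change between 72 h and 96 h of a TGF-β protocol in vehicle-treated NMuMG cells, a non-tumour epithelial line of mouse mammary origin. It covers the 12601 genes, of 20261 in the deposited table, whose mean was at least 10 normalized reads in vehicle cells at 96 h or at 72 h. The groups were vehicle (DMSO) cells at 96 h and vehicle cells at 72 h, with 2 libraries each, and they were set beside the same step in cells given an inhibitor labelled JNKi and beside the 48 h and 24 h vehicle groups. The whole series holds 35 samples, of which the 20 vehicle and JNKi libraries were used. All cells carry the labels genotype WT and strain E9, and the protocol given for every sample includes TGF-β at 2 ng/ml, so each group compared here had TGF-β and no group without it was used. The labels give a change of medium and TGF-β every 2 days but not its hours, so time under TGF-β and the age of the medium cannot be told apart. They do not name the JNKi compound, and they leave unsaid whether replicates came from separate cultures. The p-values therefore rest on the spread between these libraries alone, and that spread may be technical.

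TGF-β drives NMuMG cells through an epithelial-mesenchymal transition (EMT), in which junctions and keratins give way to stress fibres and matrix, and it is known to slow division of mammary epithelium. Cells that run short of amino acids, or whose endoplasmic reticulum (ER) is stressed, make more of the transcription factor ATF4, which turns on genes for amino acid transport, amino acid synthesis and tRNA charging. Sterol supply is read by another system, in which the SREBP factors turn on cholesterol synthesis genes when membranes are short of sterol.

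The 96 h libraries held 42.8 and 32.5 M reads and the 72 h libraries 48.6 and 33.6 M reads. Replicates differed by more than sampling noise, their chi-square divided by its degrees of freedom being 24 at 96 h and 27.2 at 72 h, and the median absolute log2 difference between replicates was 0.097 at 96 h and 0.128 at 72 h. Values are the authors' normalized read counts, and each fold change is the difference of mean log2(value + 1), 96 h minus 72 h, which understates the change of low genes. The epithelial label was checked against its markers. Krt8, a simple epithelial keratin, stood at 67125.8 and 62392.2 normalized reads at 96 h, against 147977.6 and 120566.8 at 72 h, and Cdh1, E-cadherin, at 10992.1 and 7393.6, against 10116.2 and 8766.4. Epcam, another epithelial marker, was listed at 0.0 in both 96 h libraries, against 0.6 and 0.0 at 72 h, so this defining marker was absent.

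Between 72 h and 96 h 3 groups of genes moved almost as a whole. Genes of the ATF4 amino acid response were higher at 96 h, genes of cell division and DNA replication were lower, and genes of cholesterol synthesis were lower. By limma with Benjamini-Hochberg adjustment (adjusted p under 0.05), 2155 of the 12601 genes rose (17.1%) and 2861 fell (22.7%), so 39.8% passed in either direction. Changes of at least 2-fold were fewer, with 384 genes higher (3.05%) and 559 lower (4.44%), where the shares over all 13896 genes fitted were 3.08% and 4.2%, and 84 rose and 54 fell by at least 4-fold. The median change over all 12601 genes was -0.02 on the log2 scale, with quartiles of -0.33 and 0.28. The 96 h and 72 h libraries did not overlap for 4265 genes that were higher (33.8%) and 4724 that were lower (37.5%). Most genes, 12094, had a mean of at least 10 at both times, while 278 reached it only at 96 h and 229 only at 72 h, and for these a difference is partly built in. Just inside this limit lay Chrd, with means of 10 at 96 h and 3.9 at 72 h, and just outside it lay Ceacam16, with means of 9.9 and 5.4. In these bulk samples fewer cells of a type and less RNA per cell cannot be told apart. Without replicate 1 at 72 h the calls over all 13896 genes fitted numbered 3295, against 5085 with all libraries (36.6%).

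Some properties of the RNA moved with the step. The nuclear RNA Neat1 stood at 1465 and 1737 RPM (reads scaled to the library's total) at 96 h, against 194.0 and 537.3 at 72 h, and 535 olfactory and vomeronasal receptor genes, which epithelial cells should not use, summed to 62.6 and 68.2 RPM at 96 h, against 38.6 and 49.9 at 72 h. The median log2 change went up with transcript length, being -0.12 in the quintile of genes with the shortest transcripts and 0.05 in that with the longest, and it was 0.11 in the quintile of lowest GC content and -0.12 in that of highest. In JNKi cells the shortest and longest quintiles gave -0.12 and 0.04. The part of these properties in the results below was not tested.

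**Figure D1:**
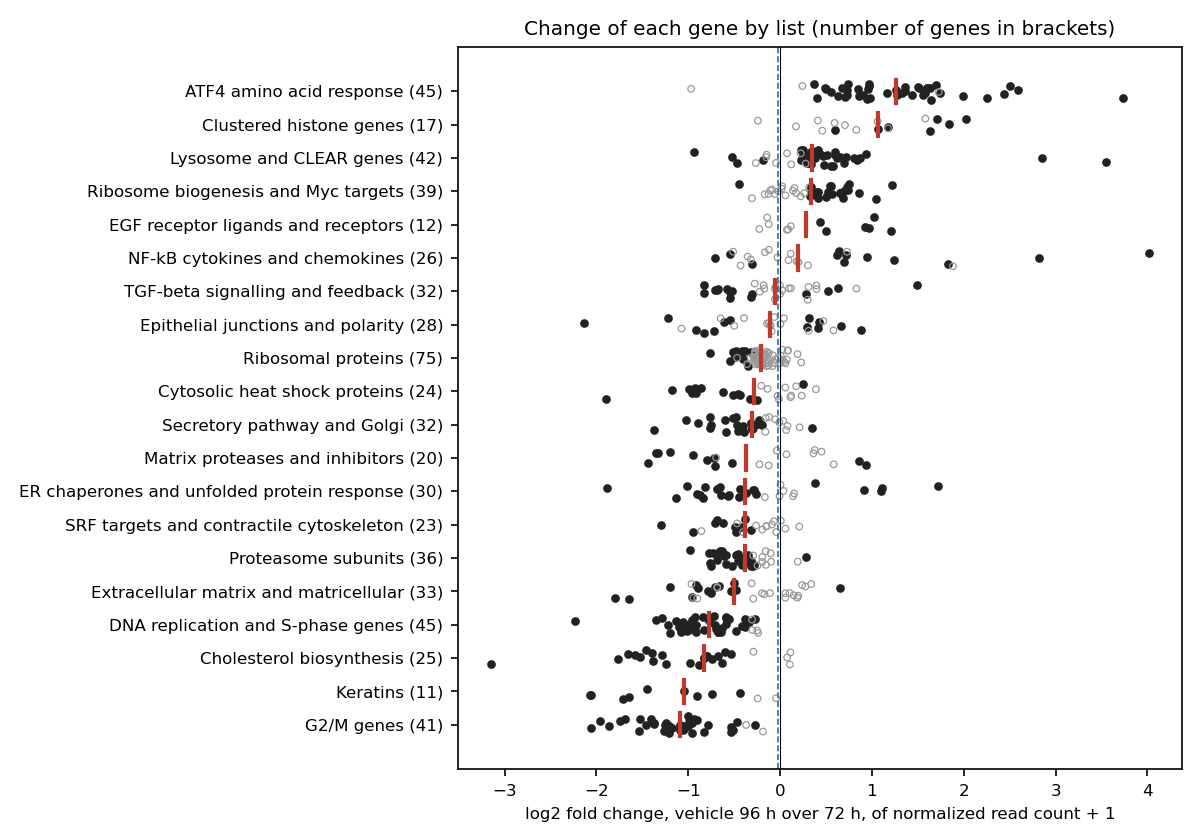
Each point is 1 gene, placed by its log2 fold change between vehicle cells at 96 h and 72 h, in rows of 20 gene lists with the number of genes in brackets. Filled points passed limma at an adjusted p under 0.05, open points did not, red bars are list medians (1.27 for the ATF4 list, -1.09 for the G2/M list) and the dashed line is the median of all 12601 genes, -0.02.

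The promoters of the 3 moving groups, and of the lysosomal genes described after them, were searched for the short motifs known to serve them, from 250 bases before to 50 bases after each RefSeq gene start, on both strands. The windows printed belong to the largest changes among genes with a match whose window lies before the gene start. They run 5′ to 3′ on the gene's strand in the GRCm38.p6 build, and capitals mark the first match together with any match that overlaps it. A match is a description of these letters and not a site shown to be used. For the ATF4 list the motif was TGATGNAA, the C/EBP-ATF response element, found in 13 of the 35 genes that rose and had a promoter in the table (37.1%), against 4.1% of all 27025 promoters. It is shown for Slc7a11 (chr3:50443642-50443709, minus strand), Pycr1 (chr11:120643814-120643881, minus strand), Nupr1 (chr7:126625543-126625610, minus strand) and Chac1 (chr2:119351019-119351086, plus strand).
Slc7a11: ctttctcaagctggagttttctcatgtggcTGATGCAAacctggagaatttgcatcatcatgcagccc
Pycr1: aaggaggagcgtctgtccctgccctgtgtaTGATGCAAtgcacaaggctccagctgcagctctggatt
Nupr1: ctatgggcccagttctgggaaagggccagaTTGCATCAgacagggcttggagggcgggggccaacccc
Chac1: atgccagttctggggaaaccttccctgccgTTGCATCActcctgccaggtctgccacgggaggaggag

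For genes of the late cell cycle the motif was TTTGAA, the core of the cell cycle homology region, found in 23 of 34 genes that fell (67.6%), against 18.1% of all promoters. CCAAT, the box that often stands beside it, was found in 27 of the 34 (79.4%), against 37.9% of all promoters. Tpx2, found only through a synonym, was given the promoter of Dazl, another gene. Both the 27 and the 34 include it. The TTTGAA match is shown for Mki67 (chr7:135716460-135716525, minus strand), Ccnb2 (chr9:70421686-70421751, minus strand) and Kif2c (chr4:117178840-117178905, minus strand).
Mki67: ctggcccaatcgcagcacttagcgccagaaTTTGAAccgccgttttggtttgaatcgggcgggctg
Ccnb2: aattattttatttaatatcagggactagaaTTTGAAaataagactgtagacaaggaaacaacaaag
Kif2c: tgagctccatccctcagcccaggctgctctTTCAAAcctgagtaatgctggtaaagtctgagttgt

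For replication genes the E2F motifs were TTTCGCGC, TTTGGCGC and TTTCCCGC, the first and second of which can overlap each other on opposite strands. They were found in 10 of 32 genes that fell (31.2%), against 1.9% of all promoters. They are shown for the helicase subunits Mcm6 (chr1:128359774-128359845, minus strand) and Mcm5 (chr8:75109326-75109397, plus strand) and the helicase loader Cdc6 (chr11:98907983-98908050, plus strand).
Mcm6: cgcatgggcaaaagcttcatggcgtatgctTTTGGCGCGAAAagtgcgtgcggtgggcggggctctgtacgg
Mcm5: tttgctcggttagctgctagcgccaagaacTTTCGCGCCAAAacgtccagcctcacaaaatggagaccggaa
Cdc6: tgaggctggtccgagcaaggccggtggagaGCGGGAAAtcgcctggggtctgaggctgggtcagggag

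For lysosomal genes the motif was CACGTG, which reads the same on both strands and is bound by TFEB, found in 9 of 21 genes that rose (42.9%), against 7.2% of all promoters. It is shown for Fnip1 (chr11:54438074-54438139, plus strand), Naglu (chr11:101069991-101070056, plus strand) and Atp6v0b (chr4:117887330-117887395, minus strand). For cholesterol synthesis the sterol regulatory element TCACNCCAC was found in 0 of 13 genes that fell, against 1.2% of all promoters, which says only that these letters are not in these windows. CCAAT was found in 11 of these 13 (84.6%) and in 15 of 16 ER chaperone genes that fell (93.8%), against the same 37.9% of all promoters.
Fnip1: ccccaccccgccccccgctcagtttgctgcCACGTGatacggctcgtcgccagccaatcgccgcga
Naglu: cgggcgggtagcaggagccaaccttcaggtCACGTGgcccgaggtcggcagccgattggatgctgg
Atp6v0b: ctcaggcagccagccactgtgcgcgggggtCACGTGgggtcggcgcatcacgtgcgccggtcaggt

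Of the 45 genes of the ATF4 amino acid response, 42 rose and 0 fell, where 17.1% of all genes rose, and the list median was 1.27, against -0.02 over all genes. Of the 42, 23 rose by at least 2-fold. Cth, cystathionine γ-lyase, which makes cysteine, had 2955 and 3044 normalized reads at 96 h, against 236.8 and 212.8 at 72 h. Slc7a11, the cystine importer whose promoter is shown above, had 1220 and 1237 at 96 h, against 202.7 and 203.1. In both genes the 96 h libraries lay close together and far above the 72 h libraries. The log2 changes were 3.73 (SE 0.34, limma adjusted p = 1.05e-06) for Cth and 2.59 (SE 0.31, adjusted p = 1.2e-05) for Slc7a11, or 13.3-fold and 6.03-fold. Trib3, a pseudokinase induced by ATF4, had 7177 and 8058 normalized reads at 96 h, against 1609 and 1579 at 72 h (log2 2.25). Ddit3, which encodes the stress factor CHOP, had 1352 and 1868 at 96 h, against 274.0 and 284.9 (log2 2.50). Asns, asparagine synthetase, had 11088 and 11262 at 96 h, against 4980 and 5028 (log2 1.16). In these genes too the groups did not overlap. The most abundant members moved less. Phgdh, the first enzyme of serine synthesis, had 24101 and 23820 at 96 h, against 15474 and 13924 (log2 0.71, SE 0.17, limma adjusted p = 0.00302). Slc38a2, a neutral amino acid transporter, had 23130 and 27573 at 96 h, against 18187 and 21099 (log2 0.37, SE 0.13, adjusted p = 0.0295), a call lost without replicate 1 at 72 h (adjusted p = 0.237) or without replicate 2 at 96 h (adjusted p = 0.262). Atf4 RNA itself had 17081 and 19352 at 96 h, against 15697 and 12025 (log2 0.40, SE 0.14, limma adjusted p = 0.0323). The 3 members that did not pass were Cbs, the enzyme before Cth in the same pathway (log2 -0.97), the methionine tRNA synthetase Mars (0.24) and Stc2 (1.73), a secreted glycoprotein. Slc1a1, a carrier of glutamate and cysteine that was not on the list, was among the largest rises of the whole step. It had 185.5 and 217.2 normalized reads at 96 h, against 11.4 and 7.9 at 72 h. Slc1a1 reached the limit on the group mean only at 96 h, so its difference is partly built in.

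**Figure D2:**
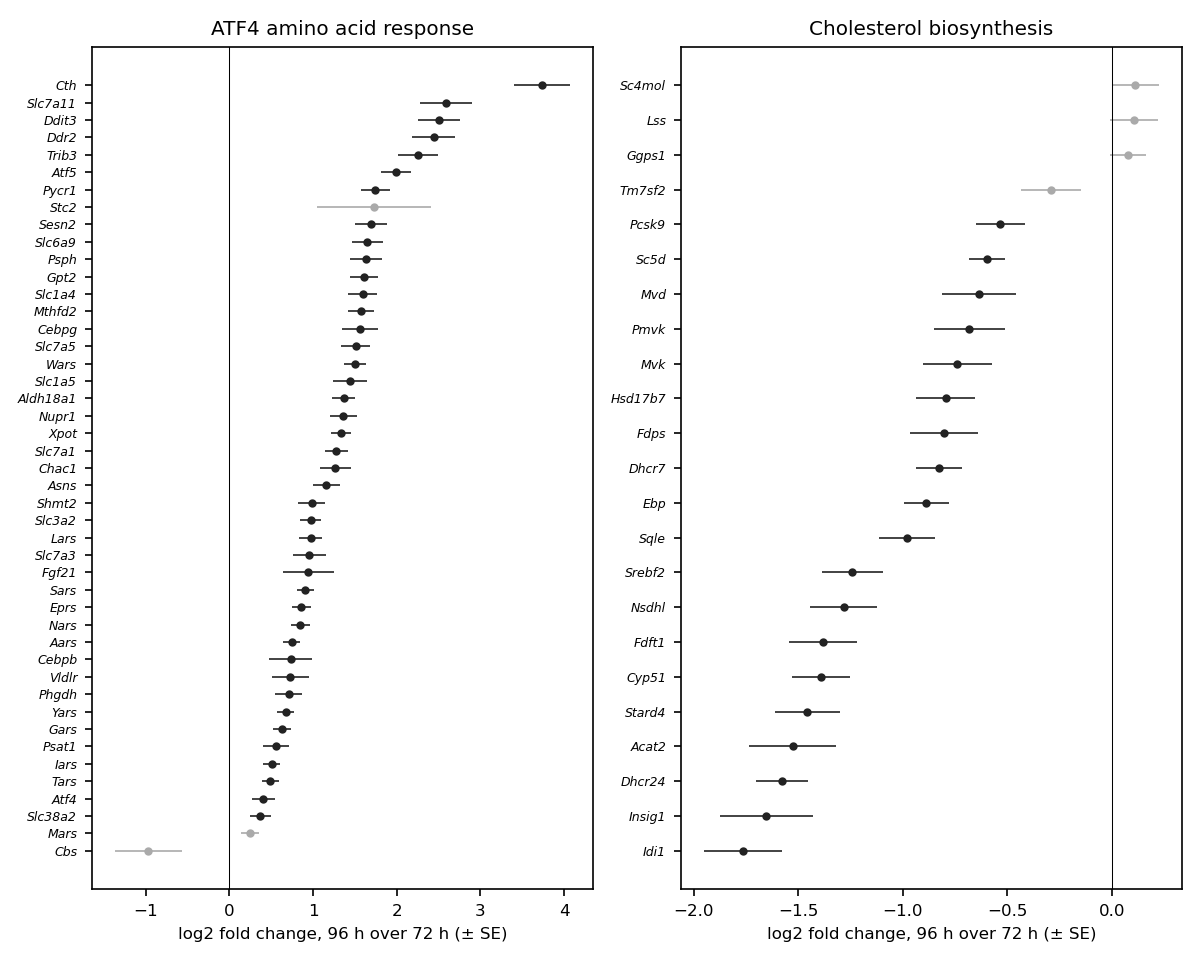
Points are log2 fold changes between vehicle cells at 96 h and 72 h, with bars of 1 SE, for the 45 genes of the ATF4 list and 23 of the 25 of the cholesterol list. Dark points passed limma at an adjusted p under 0.05, grey points did not. In the ATF4 list Cth stands highest at 3.73, and among the cholesterol genes plotted Idi1 stands lowest at -1.76.

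Other genes with stress or nutrient roles were divided. Over all genes 17.1% rose and 22.7% fell, and the autophagy list below lay near these shares, at 21.4% each way. In the FOXO list below 22.7% rose and 9.09% fell. Of 42 lysosome genes, 30 rose and 4 fell (1 without replicate 1 at 72 h), with a median of 0.35. Psap, prosaposin, had 61400 and 56820 normalized reads at 96 h, against 46036 and 47409 at 72 h (log2 0.34, SE 0.10, limma adjusted p = 0.0118). Sgsh, a sulfatase of heparan sulfate breakdown, had 166.0 and 117.9 at 96 h, against 13.9 and 8.8 (log2 3.54, adjusted p = 2.88e-06). Its neighbour Slc26a11, a sulfate carrier, had 206.2 and 205.7 at 96 h, against 9.5 and 9.7 (log2 4.29). Slc26a11 reached a mean of 10 only at 96 h, so its difference is partly built in. Sgsh and Slc26a11 overlap in the annotation. The sources used here do not give the strand setting of the counting, and their reads may be shared. Psap lost its call without replicate 1 at 72 h (adjusted p = 0.072) or at 96 h (0.0937). Sqstm1, the autophagy receptor p62, rose to 44230 and 53064 at 96 h, against 21308 and 18275 (log2 1.30), while the 28 autophagy genes as a list had 6 rises and 6 falls (3 falls without replicate 1 at 72 h). Of 22 FOXO and starvation genes 5 rose and 2 fell (3 and 1 without that library), among them Arrdc4, a nutrient-responsive arrestin (log2 1.14).

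The ER chaperone list did not move with the ATF4 list. Of its 30 genes, 19 fell and 5 rose, where 22.7% of all genes fell, and its median was -0.38. P4hb, protein disulfide isomerase, had 26550 and 23779 normalized reads at 96 h, against 40020 and 38475 at 72 h (log2 -0.64, SE 0.09, limma adjusted p = 6.73e-05). Hspa5, the main ER chaperone BiP, had 34547 and 39014 at 96 h, against 37192 and 34372, and its groups overlapped (log2 0.04, SE 0.14, adjusted p = 0.859). Sec24d, a coat protein of transport vesicles, had 500.1 and 436.2 at 96 h, against 1742 and 1721 (log2 -1.89). The 5 genes that rose were Ppp1r15a, Herpud1, Atf6, Ern1 and Sel1l, and 3 genes of the list rose without replicate 1 at 96 h. Ppp1r15a, the GADD34 subunit that reverses translational arrest, had 7045 and 7149 at 96 h, against 3664 and 1268 (log2 1.72, adjusted p = 0.0218). It did not pass without any of 3 libraries, with adjusted p of 0.251 without replicate 2 at 72 h, 0.0735 without replicate 1 at 96 h and 0.0858 without replicate 2 at 96 h. Of 32 genes of the secretory pathway 22 fell and 1 rose (14 fell without replicate 1 at 72 h), and of 24 cytosolic heat shock genes 13 fell and 2 rose (0 rose without replicate 1 at 72 h). Hspa8, the constitutive HSC70, had 51095 and 44989 at 96 h, against 98735 and 84294 (log2 -0.93, SE 0.15, limma adjusted p = 0.000125).

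Of 41 genes of the G2 and M phases, 39 fell and 0 rose, where 22.7% of all genes fell, with a median of -1.09. Mki67, the proliferation antigen, had 1280 and 1476 normalized reads at 96 h, against 5534 and 5971 at 72 h (log2 -2.06, SE 0.13, limma adjusted p = 5.8e-08). Aurkb, a mitotic kinase, had 265.8 and 283.7 at 96 h, against 1036 and 1101 (log2 -1.96). The 96 h means were 0.239 of the 72 h mean for Mki67 and 0.258 for Aurkb. The members that did not pass were Ect2 (log2 -0.37) and Ndc80 (-0.19). Of 45 genes of replication and S phase, 41 fell and 0 rose, with a median of -0.78. Tk1, thymidine kinase, had 351.5 and 244.7 at 96 h, against 1308 and 1456 (log2 -2.23), and overlaps the gene Afmid. Mcm6, whose promoter is shown above, had 1639 and 1591 at 96 h, against 4050 and 4194 (log2 -1.35, SE 0.12, adjusted p = 8.69e-07). The groups lay apart in each of these 4 genes. Mxd3, a member of the Myc and Max network, showed the largest fall by the naming rule, with 12.7 and 13.3 at 96 h, against 128.2 and 133.7 (log2 -3.24), and overlaps Prelid1.

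Genes tied to growth did not all follow division. Of 39 genes of ribosome biogenesis and Myc targets, 22 rose and 1 fell, with a median of 0.34. Over all genes 17.1% rose and 22.7% fell. Myc, the growth-promoting factor, had 12816 and 14422 normalized reads at 96 h, against 7350 and 5915 at 72 h (log2 1.04, SE 0.15, limma adjusted p = 5.14e-05). Ccnd2, a G1 cyclin, had 5119 and 4802 at 96 h, against 1664 and 1549 (log2 1.63). Clustered histone genes, whose main transcripts lack a poly(A) tail, also ran against the replication genes. Of the 17 members 7 rose and 0 fell (median 1.06), and Hist1h1c, a linker histone, had 2594 and 2718 at 96 h, against 1365 and 539.0 (log2 1.63). Only 4 of the histone genes rose without replicate 2 at 96 h, and how the libraries selected RNA is not stated in the labels. Of 30 p53 targets and cell cycle inhibitors 11 rose (36.7%) and 5 fell (16.7%, below the share of all genes). Of 12 EGF receptor ligands and receptors 6 rose (50%) and 0 fell. Without replicate 2 at 72 h 7 of the p53 list and 3 of the EGF list rose. Areg, amphiregulin, had 3871 and 4227 at 96 h, against 1949 and 1582 (log2 1.20).

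Of 25 cholesterol synthesis genes, 21 fell and 0 rose, where 22.7% of all genes fell, with a median of -0.83. Of the 21, 10 fell by at least 2-fold. Idi1, an isomerase of the isoprenoid branch, had 281.9 and 314.8 normalized reads at 96 h, against 919.9 and 1120 at 72 h (log2 -1.76, SE 0.19, limma adjusted p = 4.32e-06). The most abundant members fell as well. Cyp51, lanosterol demethylase, had 6058 and 6058 at 96 h, against 15789 and 15992 (log2 -1.39). Srebf2, the sterol-sensing factor, had 5551 and 4162 at 96 h, against 11783 and 10956 (log2 -1.24, SE 0.15, adjusted p = 1.13e-05). In none of these 3 genes did the groups overlap. The 4 genes that did not pass were Tm7sf2 (log2 -0.29), Ggps1 (0.08), Lss (0.11) and Sc4mol (0.11). Of 21 fatty acid synthesis genes 10 fell (47.6%) and 1 rose, with a median of only -0.18. Scd2, a desaturase, had 119583 and 90579 at 96 h, against 238650 and 233321 (log2 -1.18), and Fasn had 12218 and 12819, against 16850 and 17385 (log2 -0.45).

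Transcripts of the respiratory chain, the proteasome and mitochondrial ribosomes changed by smaller amounts, and mostly downward. Of 74 nuclear genes of the respiratory chain 43 fell and 1 rose (median -0.34). Of 36 proteasome subunits 26 fell and 1 rose (median -0.39), and of 73 mitochondrial ribosomal protein genes 24 fell and 3 rose (median -0.19). The shares that fell were 58.1%, 72.2% and 32.9%, against 22.7% of all genes. Psma2, a subunit of the 20S core, had 1873 and 1773 normalized reads at 96 h, against 4008 and 3208 at 72 h (log2 -0.98, SE 0.14, limma adjusted p = 4.52e-05). These counts lean on single libraries. Fewer respiratory and mitochondrial ribosomal genes fell without replicate 2 at 96 h, and fewer mitochondrial ribosomal genes without replicate 1 at 96 h. The number that fell was lowest, in each of these lists, without replicate 1 at 72 h. Of the 75 cytosolic ribosomal protein genes 13 fell (17.3%) and 0 rose, a share of falls below the 22.7% of all genes. The number that fell was 2 without that library and 36 without replicate 2 at 72 h. Many of these genes are short, and short transcripts had the lower median given above. Of 37 glycolysis and hypoxia genes 17 fell and 6 rose (11 fell without replicate 1 at 72 h), and Ero1l, an ER oxidase induced by hypoxia, was among those that rose, with 2555 and 2762 at 96 h, against 938.2 and 1072 (log2 1.41). Of 33 NRF2 and oxidative stress genes 15 fell and 4 rose (10 fell without replicate 2 at 96 h), and the 4 that rose include Slc7a11, which is also on the ATF4 list.

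**Figure D3:**
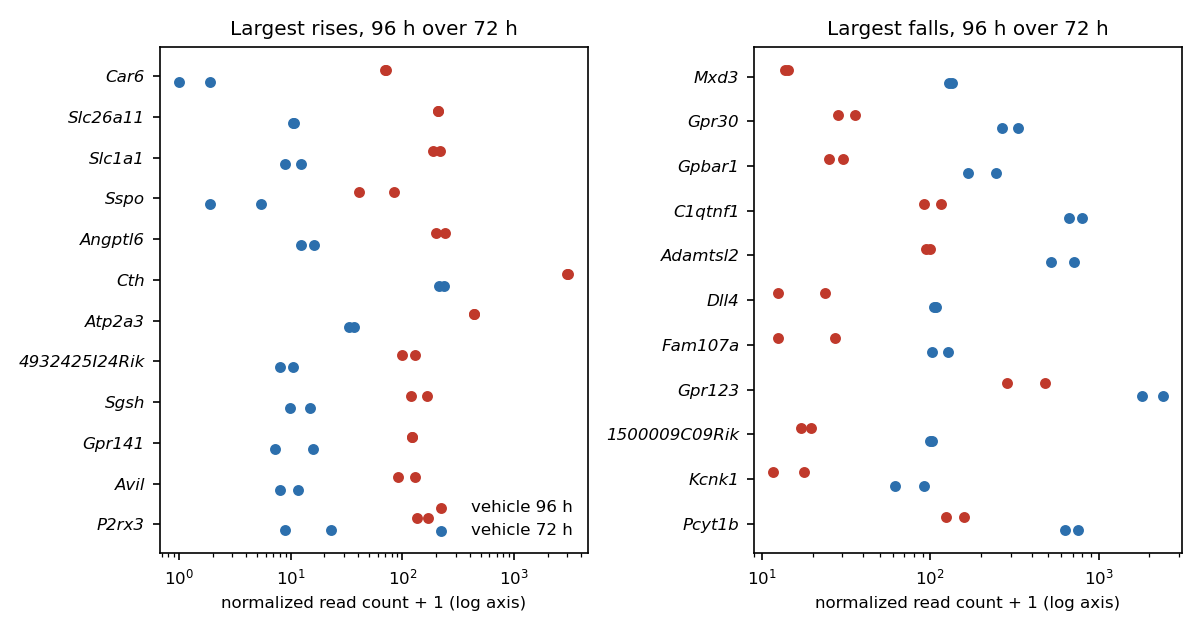
Normalized read count plus 1 on a log axis for the 12 largest rises (left) and 11 of the 12 largest falls (right) by the naming rule, with 1 point per library, vehicle 96 h in red above vehicle 72 h in blue. In all 23 genes both 96 h libraries lie on 1 side of both 72 h libraries, as the rule required.

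Apart from the genes already given, the largest rises were in genes with few reads at 72 h. Car6, a secreted carbonic anhydrase, had 69.0 and 70.9 normalized reads at 96 h, against 0.0 and 0.9 at 72 h. Its 183 reads at 96 h stood against 1 read at 72 h, a ratio of 190 with an exact conditional 95% interval of 33.7 to 7540 that covers counting error only. Atp2a3, an ER calcium pump, had 431.8 and 440.7 at 96 h, against 36.0 and 32.5 (log2 3.63), and Angptl6, a secreted angiopoietin-like protein, had 197.5 and 239.4, against 15.2 and 11.4 (log2 3.95). Among the falls were several receptors and secreted proteins. Gpr30, the G protein-coupled oestrogen receptor, had 27.5 and 34.6 at 96 h, against 332.7 and 266.4 (log2 -3.23), and overlaps 3110082I17Rik. Gpbar1, a bile acid receptor, had 29.5 and 23.9, against 245.6 and 167.1 (log2 -2.88). C1qtnf1, a secreted C1q-like protein, had 115.2 and 91.3, against 791.1 and 664.7 (log2 -2.81). The other rises of the 12 were Sspo, 4932425I24Rik, Gpr141, Avil and P2rx3, with log2 changes of 3.40 to 4.19. Car6, Sspo, 4932425I24Rik and Avil reached the limit on the group mean only at 96 h, so their differences are partly built in. The other falls were Adamtsl2, Fam107a, Gpr123, 1500009C09Rik, Kcnk1 and Pcyt1b, with log2 changes of -2.65 to -2.29. The 23 genes plotted all kept their call in each of the 12 alternative settings run.

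In the matrix, contractile and TGF-β lists more genes fell than rose, as over all genes, of which 22.7% fell and 17.1% rose. Of 33 matrix genes 13 fell and 1 rose, with a median of -0.51. Fn1, fibronectin, had 482266 and 425386 normalized reads at 96 h, against 374379 and 422435 at 72 h (log2 0.19, SE 0.18, limma adjusted p = 0.439). Fbln2, fibulin 2, was the gene that rose, with 244184 and 252107 at 96 h, against 151228 and 163650 (log2 0.66). Fbln1 ran the other way, with 25.4 and 38.1 at 96 h, against 142.7 and 85.3 (log2 -1.79). Of 23 genes of the contractile cytoskeleton 10 fell and 0 rose (6 fell without replicate 2 at 96 h). Acta2, smooth muscle actin, had 466.0 and 584.3 at 96 h, against 933.8 and 1091 (log2 -0.95, SE 0.29, adjusted p = 0.0163), and lost its call without replicate 2 at 72 h (adjusted p = 0.0881) or without replicate 1 at 96 h (0.112). Tagln, transgelin, had 3162 and 3926 at 96 h, against 3621 and 3625, groups that overlapped (log2 -0.04, SE 0.22, adjusted p = 0.904). Smad7, the feedback inhibitor of the TGF-β pathway, had 2731 and 4101 at 96 h, against 4473 and 2714, with overlap (log2 -0.06, SE 0.32, adjusted p = 0.905). Of 32 TGF-β pathway genes 11 fell and 4 rose, and 6 fell without replicate 1 at 72 h. Gdf15, a stress-induced member of the TGF-β family, was the largest rise there, with 7225 and 7254 at 96 h, against 2919 and 2287 (log2 1.49).

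Among EMT transcription factors Snai1 and Snai2 went opposite ways. Snai1 had 241.0 and 409.6 normalized reads at 96 h, against 642.7 and 816.0 at 72 h (log2 -1.20, SE 0.22, limma adjusted p = 0.000579). Snai2 had 26.8 and 41.7 at 96 h, against 2.5 and 8.8 at 72 h (log2 2.56, SE 0.57, limma adjusted p = 0.00205). Snai2 reached the limit on the group mean only at 96 h, so its difference is partly built in. Zeb1 had 2526 and 2830 at 96 h, against 2273 and 2139 (log2 0.28, SE 0.10, adjusted p = 0.0341), and lost its call without replicate 1 at 72 h (adjusted p = 0.0665), without replicate 2 at 72 h (0.156) or without replicate 2 at 96 h (0.252). Zeb2 did not pass (log2 0.20, SE 0.11, adjusted p = 0.168). Of the cadherins, Cdh2, N-cadherin, had 17253 and 15738 at 96 h, against 12176 and 12849 (log2 0.40, adjusted p = 0.00318), and Cdh1 did not pass (log2 -0.06, SE 0.14, adjusted p = 0.756). Without replicate 1 at 96 h Cdh1 had a log2 change of -0.35 (adjusted p = 0.0443). The intermediate filament Vim, a mesenchymal marker, fell to 38243 and 36562 at 96 h, against 56945 and 52479 (log2 -0.55, SE 0.10, adjusted p = 0.000643). Keratins fell too, 9 of 11 with a median of -1.05, so mesenchymal and epithelial filament genes were both lower. Of 28 junction and polarity genes 6 rose and 7 fell (3 rose without replicate 1 at 96 h). The shares of the junction list, 21.4% higher and 25% lower, were close to the 17.1% and 22.7% of all genes. Cldn12, a claudin, had 24777 and 24884 at 96 h, against 15027 and 16415 (log2 0.66), and Jup, plakoglobin, had 14684 and 17645, against 24606 and 22358 (log2 -0.54).

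The kinase pathway aimed at by the inhibitor showed small changes in vehicle cells. Mapk9, which encodes JNK2, had 1940 and 1994 normalized reads at 96 h, against 2389 and 2503 at 72 h (log2 -0.31, SE 0.08, limma adjusted p = 0.00496). Mapk8, which encodes JNK1, had 960.1 and 1023 at 96 h, against 874.4 and 888.1 (log2 0.17, SE 0.13, adjusted p = 0.347). Jun, the substrate of both, had 2203 and 3138, against 2052 and 2387 (log2 0.25, SE 0.15, adjusted p = 0.223), and passed without replicate 1 at 96 h (log2 0.50, adjusted p = 0.0261). Of 25 JNK cascade genes 4 rose (16%) and 5 fell (20%), close to the 17.1% and 22.7% of all genes, against 2 that rose without replicate 2 at 72 h and 3 that fell without replicate 1 at 72 h. Of 15 AP-1 family genes 2 rose and 1 fell, led by Atf3, a factor also induced by ATF4, with 5157 and 4889 at 96 h, against 1645 and 836.2 (log2 2.10, adjusted p = 0.000733). In the Notch pathway 6 of 14 genes fell and 2 rose, and the ligand Dll4 had 22.8 and 11.5 at 96 h, against 107.3 and 103.8 (log2 -2.63), and overlaps Gm14207. Of 10 S100 calcium-binding genes 7 fell and 0 rose, with S100a4 at 697.0 and 601.1, against 3010 and 2820 (log2 -2.17). Of 26 NF-kB cytokine genes 9 rose and 3 fell (1 fell without replicate 1 at 72 h). Lcn2, an iron-binding acute-phase protein, had 449.2 and 215.5 at 96 h, against 47.4 and 39.6 (log2 2.82). Of 34 interferon-stimulated genes 5 rose and 4 fell, and without replicate 1 at 72 h 0 rose and 2 fell.

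Many markers of other cell types were low, and those that moved did so in several ways. The summed level of 14 fibroblast markers was 1800 to 1969 normalized reads at 96 h, against 5226 to 5301 at 72 h, and most of it was S100a4 and Col1a1, while Dcn was at 0 in all 4 libraries and Col3a1 was under 2. The 16 leukocyte markers summed to 1204 to 1590 at 96 h, against 1771 to 1981, with Emr1 and Tyrobp at 0 in all 4. The highest means were those of Cd14, Csf1r and Cd68, at 593.2, 522.35 and 204.6 at 96 h, against 858.45, 681.75 and 182.35 at 72 h. The 10 endothelial markers summed to 575.9 to 774.1 at 96 h, against 701.7 to 718.6, with Emcn and Cldn5 at 0, although Vwf rose to 105.1 and 212.8, against 10.1 and 20.2. Flt1 and Cdh5 had the highest means of this list, 337.5 and 163.7 at 96 h, against 465.05 and 214.2 at 72 h. The 10 adipocyte markers summed to 266 to 281 at 96 h, against 114 to 126, nearly all of it Plin4, with Plin1 and Lep at 0. The 16 luminal markers summed to 147685 to 156780 at 96 h, against 228795 to 281426, and of 7 measured 3 rose and 3 fell. The rises include Csn3, with means of 11.95 at 96 h and 0.75 at 72 h, so its difference is partly built in. The 19 basal markers summed to 92361 to 98016, against 98058 to 105555. Most of this was Itgb1, with 80889 and 77012 at 96 h, against 75878 and 85448 at 72 h. The basal keratins Krt5 and Krt14 had means of only 8.7 and 6.45 at 96 h, against 25.55 and 28.55 at 72 h. Of 12 basal markers measured 8 fell and 0 rose, where 22.7% of all genes fell. The falls include Krt5 and Krt14, which reached a mean of 10 only at 72 h, so their difference is partly built in.

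In cells given JNKi the step from 72 h to 96 h was much the same in direction. This arm shares no library with the vehicle arm. In it 1603 of the 12601 genes rose (12.7%) and 2374 fell (18.8%) by limma, and 29.1% of all genes fitted passed in either direction. Without JNKi replicate 2 at 96 h the calls over all genes fitted numbered 2037, against 4039. A call in both arms was made for 3574 genes, which is 71.3% of the vehicle calls and 89.9% of the JNKi calls, and all 3574 had the same sign. Across the 12601 genes the log2 changes of the arms had a Pearson correlation of 0.90 and a slope of 0.76 (JNKi on vehicle). Genes are not independent replicates, and libraries with the same time and number resembled each other across arms, with correlations of 0.72 at 72 h and 0.53 at 96 h between the arms in how replicate 1 differed from replicate 2. In the ATF4 list 42 genes rose in vehicle and 37 in JNKi cells (medians 1.27 and 0.90), in the G2 and M list 39 and 36 fell (-1.09 and -0.89), and in the cholesterol list 21 and 21 fell (-0.83 and -0.81). Cth in JNKi cells had 2933 and 3208 at 96 h, against 310.3 and 885.7 at 72 h (log2 2.55, SE 0.34). Its 96 h values in both arms lay between 2933 and 3208, while JNKi replicate 2 at 72 h stood above the 2 vehicle libraries of that time.

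The test of the difference, vehicle step minus JNKi step, called 0 of 13896 genes by limma, with 256 genes (1.84%) at an unadjusted p under 0.05. It also called 0 by edgeR and 1 by DESeq2, the caveolin gene Cav1 (log2 0.62, adjusted p = 0.0328). The difference was 1.19 for Cth (SE 0.48, limma adjusted p = 1) and -0.30 for Mki67 (SE 0.18, adjusted p = 1). Dll4 had the difference -1.53 (SE 0.58, adjusted p = 1). The limma fit without pairing treats the arms as independent, although libraries of the same time and number resembled each other across arms. A limma fit with a replicate block at each time, chosen after seeing the data, called 1 gene, Cav1 (log2 0.61, SE 0.08, adjusted p = 0.0259), and 773 genes (5.56%) had an unadjusted p under 0.05. Cav1 had 4136 and 3934 normalized reads at 96 h in vehicle cells, against 4311 and 4348 at 72 h, and 3138 and 3249 at 96 h in JNKi cells, against 5087 and 5397 at 72 h. In that fit the SE was 0.36 for Cth (adjusted p = 0.593), 0.12 for Mki67 (0.795) and 0.41 for Dll4 (0.448). These standard errors leave room for differences of sizeable folds in single genes, so the arms were not shown to act alike.

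**Figure D4:**
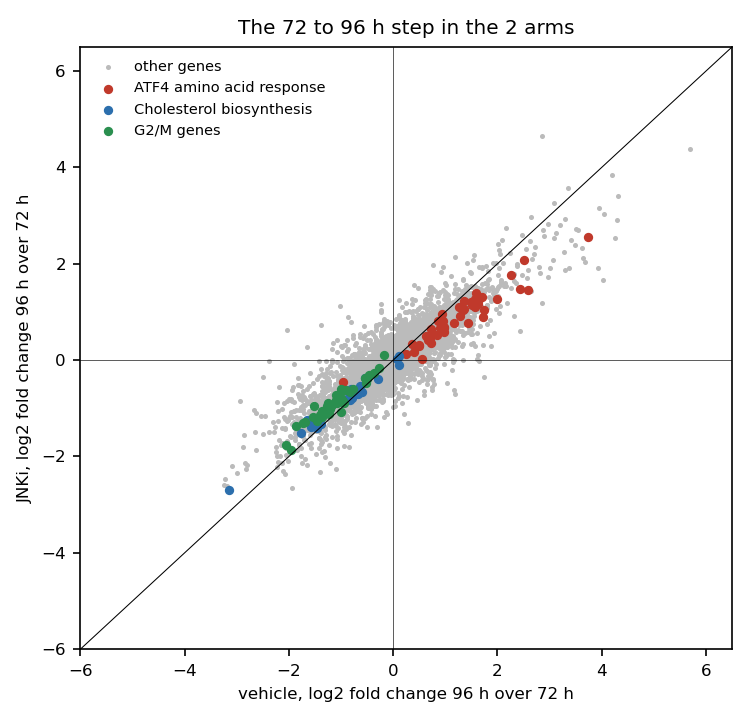
Each point is 1 of the 12601 genes, with its log2 fold change between 96 h and 72 h in vehicle cells on the horizontal axis and in JNKi cells on the vertical axis. The line marks equal change, and the ATF4 list (red), the cholesterol list (blue) and the G2/M list (green) lie along the same direction as the other genes. The slope over all 12601 genes, these lists included, was 0.76.

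A step of the same length, 24 h, had been taken earlier between 24 h and 48 h, in libraries not used at 72 h or 96 h. Vehicle cells then had 1972 of the 12601 genes higher at 48 h (15.6%) and 1819 lower (14.4%), or 30.1% in either direction. Which direction had more calls depended on the method: over all genes fitted limma called 2040 higher and 1902 lower, DESeq2 1778 higher and 2009 lower, and limma on these 4 libraries alone 1710 higher and 1767 lower. Calls in both steps were made for 1815 genes, 36.2% of the late and 47.9% of the early calls, of which 404 rose in both, 775 fell in both, 455 fell late after an early rise and 181 rose late after an early fall. The difference, late step minus early step, passed for 3557 of the 12601 genes (28.2%), 1466 of them higher and 2091 lower. The early count leans on single libraries, since without replicate 2 at 24 h 1847 genes passed over all genes fitted, against 3942 with it (28.4%).

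The lists fell into those that carried on and those that did not. Division genes fell in both steps, with 39 of 41 G2 and M genes lower late and 41 early (medians -1.09 and -0.97). Cholesterol genes did as well, with 21 of 25 lower late and 23 early (-0.83 and -0.99). The ATF4 list moved in the late step, with 42 genes higher late and 0 early (medians 1.27 and -0.00), and the difference passed for 37 of its 45 genes, all higher late. The contractile and matrix lists rose early and did not rise late. Of 23 contractile genes 18 rose early and 0 late, and the difference passed for 22, all lower late. Of 33 matrix genes 19 rose early and 1 late, and the difference passed as lower for 21. Acta2 showed this in its values, with 17.3 to 19.7 normalized reads at 24 h, 327.9 to 475.8 at 48 h, 933.8 to 1091 at 72 h, 466.0 to 584.3 at 96 h and 6408 to 10808 at 7 days, so it was lower at 96 h than at 72 h and highest at 7 days. Its late minus early difference was -5.30 (SE 0.41, limma adjusted p = 3.15e-07). Dll4, which had risen between 24 h and 48 h, differed by -4.40 (SE 0.58, adjusted p = 4.01e-05).

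**Figure D5:**
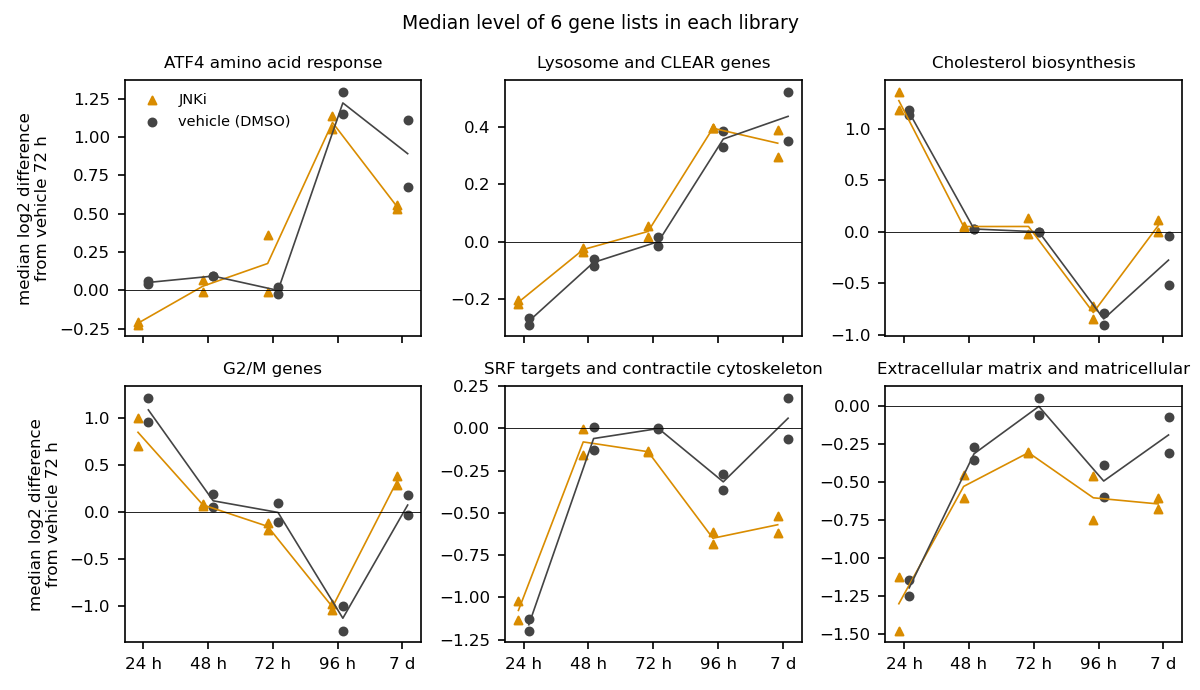
Median log2 difference from the vehicle 72 h mean over the genes of 6 lists, per library, from 24 h to 7 days, with JNKi cells as triangles and vehicle cells as circles and lines through group means. The ATF4 list stands at 1.15 and 1.30 in vehicle cells at 96 h, and the G2/M list reaches its lowest vehicle values there, -1.26 and -0.99.

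The lists followed different courses over the vehicle time points. The median of the ATF4 list, relative to vehicle cells at 72 h, was 0.05 to 0.06 at 24 h, 0.09 at 48 h, 1.15 to 1.30 at 96 h, then 0.67 to 1.11 at 7 days. The G2 and M list stood at 0.96 to 1.22 at 24 h, 0.05 to 0.19 at 48 h, -1.26 to -0.99 at 96 h, then -0.02 to 0.18 at 7 days. The cholesterol list stood at 1.14 to 1.19 at 24 h, 0.02 to 0.03 at 48 h, -0.90 to -0.79 at 96 h, then -0.51 to -0.04 at 7 days. In vehicle cells the highest medians of the ATF4 list and the lowest of the division and cholesterol lists were those of 96 h, while the division and cholesterol lists were highest at 24 h and stood higher at 7 days than at 96 h.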

How the data were processed

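The submitters' processing notes name TopHat, HTSeq and DESeq with the build mm9 but no versions. The sources used here give neither strand use nor any removal of low genes. The authors' deposited values are a signal, reads per gene after library scaling. Low values were whole multiples of 1 step in each library, and dividing by it gave whole reads for at least 99.98% of values (within 0.1) and the depth of each library. Groups came from the sample labels. The 15 time-course samples were not analysed here, because their values were split at the decimal point.

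Log2(value + 1) was fitted with limma 3.58.1 in R 4.3.3, with a mean-variance trend, 1 mean per group and all 20 libraries, over 13896 genes that reached a mean of 10 in any of the 10 groups. Tests were two-sided, with Benjamini-Hochberg adjustment over those genes and a threshold of 0.05. The script was tested on simulated data. Alternatives were a pseudocount of 8, no filter, a mean of at least 50, TMM, a replicate block, the compared groups alone, edgeR 4.0.16 and DESeq2 1.42.0 on the recovered reads, each library left out in turn and, between the arms, a replicate block at each time.

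The genes, the 56 lists and the motifs were chosen with earlier results of these data known. Named were the 12 largest rises and 12 largest falls among called genes with a mean of at least 50 and no overlap, the 2 largest called changes and 2 highest means of each list described, and a set always given: Acta2, Tagln, Smad7, Snai1, Zeb1, Zeb2, Vim, Fn1, Cdh1, Cdh2, Jun, Mapk8 and Mapk9. Atf4, Asns, Trib3, Ddit3, Cav1 and list members named because they did not pass, or as the few that rose, were chosen after their values were seen. A few genes that the rule named are not reported here. Promoters come from RefSeq (GRCm38.p6), matched by gene symbol or else by a synonym.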

Additional observations from a re-analysis of the deposited data

Results flagged for a closer look

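The test of the difference between the 72 to 96 h step and the 24 to 48 h step in vehicle cells, late minus early, passed for 3668 of 13896 genes by limma. Among 218 genes chosen by the naming rule, 22 passed in both steps with opposite signs and passed the test of the difference. The rule favours large late changes. Over the 12601 genes, 636 were called in both steps with opposite signs, 455 lower and 181 higher in the late step. Of the 22, 18 were lower in the late step after a rise in the early one. The largest differences were -6.07 (log2) for Cnn1, -5.80 for Krt17, -5.30 for Acta2, -4.40 for Dll4, -4.32 for Krt16 and -4.05 for Emilin1. Further differences were -3.73 for Adamtsl2, -3.53 for Laptm5, -3.35 for Loxl1, -3.25 for Mmp10, -2.96 for Itgb3, -2.62 for Loxl2, -2.20 for Notch4 and -2.12 for Cryab. Smaller ones were -1.98 for Col1a1, -1.85 for Tgfb3, -1.22 for Dusp10 and -0.99 for Notch2. The other 4 were higher in the late step after an early fall, with differences of 1.28 for Phgdh, 1.93 for Areg, 4.82 for Lcn2 and 5.87 for Slc26a11. Some calls of the late step were lost when 1 library was left out. The highest limma adjusted p was then 0.309 for Cnn1 (without replicate 2 at 96 h), 0.112 for Acta2 (without replicate 1 at 96 h), 0.26 for Tgfb3 (without replicate 2 at 72 h), and 0.279 for Dusp10 and 0.215 for Notch2 (both without replicate 1 at 72 h). With all compared libraries kept, Tgfb3 also missed the threshold under DESeq2 (adjusted p = 0.0618), without a filter on low values (0.0823) and with the compared groups alone (0.0652). Cryab overlaps Hspb2 and Dll4 overlaps Gm14207, so their reads may be shared. No group of 4 or more samples was available to look for a sample far from the others.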

How the results depend on the processing

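No named gene that passed changed sign in the 12 settings run for the vehicle step. For 48 h against 24 h the excess of higher calls turned over under DESeq2 (1778 higher, 2009 lower) and with the compared groups alone (1710 higher, 1767 lower). Over all genes fitted, the 5085 vehicle calls were 4337 to 5434 under the 8 settings that kept all libraries compared, 4166 to 5060 of them shared with the reported calls. On the recovered reads edgeR called 5434 and DESeq2 5244. Leaving out 1 library gave 3295 to 4412 vehicle calls (1376 to 1853 higher, 1913 to 2559 lower), 2037 to 3368 JNKi calls (723 to 1333 higher, 1314 to 2035 lower), 1847 to 3676 calls for 48 h against 24 h (1070 to 1874 higher, 777 to 1802 lower), and 2632 to 3379 for the late minus early difference. With fewer samples these fits have less power. The test between the arms called 0 genes in every setting except DESeq2 and a replicate block at each time (chosen after seeing the data), which each called 1, Cav1, with a positive difference. Replicate numbers were not taken as pairs, as only 2 pairs exist and the correlation of replicate differences between 96 h and 72 h was 0.248 over 9605 genes; the replicate block gave 5289 vehicle calls. Of 164 called named genes, 124 kept their call in each of the 12 settings that fitted them. The setting with a mean of at least 50 fitted 213 of the 220 named genes. Depth, 32.5 to 48.6 M reads, limits genes near 10 normalized reads, and 2 libraries per group limit small changes.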

Other observations

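For further lists the limma calls of single genes between 72 h and 96 h in vehicle cells were counted, with no test of a list as a whole. Over the 12601 genes 17.1% rose and 22.7% fell. Of 22 immediate-early genes 6 rose and 1 fell, and of 17 MAPK feedback genes 5 rose and 1 fell, but without replicate 2 at 72 h 3 and 2 of them rose. Of 18 circadian clock genes 6 rose and 2 fell, and of 22 YAP and TEAD targets 6 rose and 3 fell (1 fell without replicate 2 at 96 h in each list). Of 20 matrix proteases and inhibitors 9 fell and 2 rose, after 14 of them had risen between 24 h and 48 h. Of 18 integrin genes 7 fell and 3 rose (4 fell without replicate 2 at 72 h). Itgb3, the integrin chain that pairs with αv, had 3143 and 2471 normalized reads at 96 h, against 9546 and 10441 at 72 h (log2 -1.84, adjusted p = 4.01e-06). Nr1d1, a clock repressor that overlaps Thra in the annotation, had a log2 change of -1.26 by limma, and Txnip, a glucose-responsive arrestin that overlaps Gm15441, had 1.73 (adjusted p = 0.00592, and 0.0711 without replicate 1 at 72 h).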
